A study of Mus musculus with 35 samples.

Results

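Retina of mice after 6 weeks of diabetes was compared with retina of non-diabetic mice across every gene of the authors' table for these groups. The table lists 25655 genes, and 17876 of them carry a false discovery rate p-value (FDR p) and count here as tested. The comparison holds 11 of the 35 samples of the series, 5 labelled diabetic for 6 weeks and 6 labelled non-diabetic. Both groups are labelled wild type, described in the series text as wild type for Cx3cr1, the fractalkine receptor gene of microglia, and neither label names PBS, depletion or recovery. The animals' age, sex and strain and the way diabetes was induced were not stated in the labels or the series text. Other samples of the series were diabetic for 8 or 10 weeks with PBS (5 each), or had microglia depleted or returned, and only the 8 and 10 week PBS groups are used, for side by side values. Retinal RNA was made into strand-specific poly(A) libraries. The deposited values are per comparison and not per sample, so a group mean, a log2 fold change and a p-value are given for each gene, and sequencing depth is unknown. The labels do not state that each sample is a separate animal, so the p-values measure the spread between these samples, which may be technical.

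The retina is nervous tissue with its own barrier to the blood. Muller glia span it from the inner surface to the photoreceptors, supply its neurons with lactate and take up potassium and glutamate. Microglia are its resident macrophages. In diabetes the retina is known for low-grade inflammation, in which cytokines such as IL-6, TNF and interferons act on receptors that signal through STAT3, NF-kB or other STAT factors. These in turn switch on acute-phase proteins, chemokines, adhesion molecules and antigen presentation. Glia under stress make more of the filament protein GFAP, a response called gliosis. Diabetes is also known to harm retinal vessels and neurons.

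Of the 17876 genes tested, 4184 (23.4%) were called at a deposited FDR p under 0.05. The diabetic group was higher for 2520 (14.1%) and lower for 1664 (9.31%), with a median log2 fold change of 0.04 over all tested genes. Rises reached much further than falls. Among the genes called higher the median log2 fold change was 0.61, and 834 (4.67% of the genes tested) were at least 2-fold higher. Among the genes called lower the median was -0.48, and 144 (0.806%) were at least 2-fold lower. A log2 fold change of at least 4 was reached by 98 of the genes called higher and by 1 of the genes called lower, a predicted gene of low level. The standard error (SE) of a log2 fold change, taken from the deposited p as described with the processing, had a median of 0.156 with quartiles of 0.118 and 0.358. Precision depended on level: in the lowest of 5 equal bins by group mean the median SE was 0.857 and 5.51% were called higher, while in the highest bin it was 0.119 and 16.4% were called higher.

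Markers of neighbouring tissues were summed in each group as a description, with no test of the sums. The levels of 24 lens genes summed to 4150 in the non-diabetic and 10107 in the diabetic group, and none of them was listed at 0 in either group. Levels of 11 blood cell genes summed to 132 in the non-diabetic and 59.9 in the diabetic group. For 14 genes of surface epithelium the sums were 16.7 and 19.8, and for 19 of the pigment epithelium and visual cycle 147 and 169. The unit of these levels is not given, and their part in the results below was not tested. Rod genes had the levels of a retina, with Gnat1, rod transducin, at a non-diabetic group mean of 3630 and Rcvrn, the calcium sensor recoverin, at 941 in the authors' deposited table.

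Sequences upstream of genes that moved together are shown first, because 3 of the gene groups below hold short motifs there that are known binding sites. They are RefSeq promoter windows of the GRCm38.p6 assembly, matched by symbol, and cover the 250 bases before each start site. A window was found for 13848 of the 17876 tested genes. The interferon-stimulated response element (ISRE), which is bound by STAT and IRF factors, was searched as TTTCNNTTTC on both strands. It was present in 3.28% of all tested genes with a window, 5.08% of those called higher and 2.72% of those called lower. Among interferon-inducible GTPases with a window it was present in 9 of 10, and among interferon-stimulated antiviral genes in 9 of 23. The NF-kB site was searched as GGGNNTTTCC and was present in 1.78% of all tested genes with a window, 4 of 19 genes of IL-1, TNF and NF-kB feedback, 2 of 10 CXC chemokine and 2 of 12 CC chemokine genes. The endoplasmic reticulum stress element (ERSE), bound by ATF6 with NF-Y, was searched as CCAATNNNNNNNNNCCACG. It was present in 0.159% of all tested genes with a window, 0.466% of those called lower and 8 of 22 genes of the unfolded protein response. The 6 genes called lower that hold it all belong to that list, so these last 2 shares count the same genes. The heat shock element, GAANNTTCNNGAA, was present in 0.455% of all tested genes with a window and in 2 of 20 heat shock and chaperone genes. The same letters can count for more than 1 motif where they overlap, and a match is a description of the sequence only.

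Below, the capitals mark the motif, which is shown with 20 bases on either side. Each sequence is written 5′ to 3′ on the gene's strand, and the motif may match on either strand. The first 4 hold an ISRE and belong to genes called higher.
Ifit1, chr19:34640765-34640833, plus strand: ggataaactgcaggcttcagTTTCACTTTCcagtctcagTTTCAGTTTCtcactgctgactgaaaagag
Gbp3, chr3:142559979-142560034, plus strand: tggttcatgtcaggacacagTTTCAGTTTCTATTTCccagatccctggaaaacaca
Tgtp1, chr11:48992294-48992343, minus strand: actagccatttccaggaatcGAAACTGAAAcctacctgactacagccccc
Cxcl10, chr5:92349073-92349122, minus strand: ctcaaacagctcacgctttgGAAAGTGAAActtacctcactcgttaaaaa
The next 3 hold NF-kB sites and also belong to genes called higher.
Cxcl1, chr5:90891136-90891203, plus strand: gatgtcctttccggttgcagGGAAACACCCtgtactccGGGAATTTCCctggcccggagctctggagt
Cxcl2, chr5:90903782-90903850, plus strand: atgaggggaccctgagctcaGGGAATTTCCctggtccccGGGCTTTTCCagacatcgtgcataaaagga
Nfkbia, chr12:55492648-55492696, minus strand: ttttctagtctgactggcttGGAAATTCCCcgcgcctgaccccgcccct
The last 3 hold an ERSE and belong to genes called lower.
Hspa5, chr2:34772005-34772063, plus strand: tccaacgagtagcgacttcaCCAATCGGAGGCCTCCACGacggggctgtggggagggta
Calr, chr8:84847055-84847113, minus strand: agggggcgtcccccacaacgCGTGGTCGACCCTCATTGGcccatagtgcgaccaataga
Pdia6, chr12:17266471-17266529, plus strand: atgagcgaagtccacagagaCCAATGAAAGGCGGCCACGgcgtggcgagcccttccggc

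Chemokine genes, whose products draw leukocytes, had some of the largest rises. Of 18 tested CC and CX3C chemokine and receptor genes, 10 were called higher and 1 lower, with a median log2 fold change of 1.03. Ccl2, which draws monocytes, had a group mean of 25.3 in diabetic and at most 0.114 in non-diabetic retina, a log2 fold change of 7.73 (SE 0.93, FDR p = 1.08e-13) in the authors' deposited table. Its neighbours on chromosome 11 moved with it: Ccl7 by 6.99 (SE 1.27) and Ccl12 by 4.59 (SE 0.71) in the same authors' deposited table. Ccl5, which also draws T cells, rose from at most 0.174 to 3.69, and Ccl3 and Ccl4 rose to 1.61 and 1.98, in the authors' deposited table. Cx3cl1, the neuronal ligand of the microglial receptor Cx3cr1, was the member called lower, at -0.50 (SE 0.12, FDR p = 0.000337) from a mean of 19.7 in the authors' deposited table. Ccr1 and Ccr2, receptors for these ligands, were not called, at 0.25 and -0.44 in the authors' deposited table.

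Of 13 tested CXC chemokine and receptor genes, 6 were called higher and 1 lower. Cxcl10, an interferon-induced ligand of the T cell receptor Cxcr3, had a group mean of 34.3 in diabetic and at most 0.129 in non-diabetic retina, a log2 fold change of 8.46 (SE 0.95, FDR p = 1.17e-15) in the authors' deposited table. Its relative Cxcl9 rose by 8.22 (SE 1.77), with a diabetic group mean of only 0.358, in the authors' deposited table. Cxcl1, Cxcl2 and Cxcl5, ligands that draw neutrophils, rose by 7.41, 6.34 and 6.73 to group means of 14.5, 3.56 and 2.02 in the authors' deposited table. Cxcl12, a ligand made in many tissues without inflammation, fell by 1.36 (SE 0.21, FDR p = 3.06e-08) from a mean of 2.71 in the authors' deposited table. The ligands that rose and Cxcl12 thus moved in opposite directions, while Cxcr4, its receptor, was not called at -0.16 in the authors' deposited table.

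Among IL-6 family and colony-stimulating cytokines, 8 of 16 tested genes were called higher and none lower, with a median of 0.80. Csf3, the granulocyte growth factor, had the largest rise of any gene called, 9.18 (SE 1.23, FDR p = 4.63e-11), to a group mean of 5.29 from at most 0.0301 in the authors' deposited table. Il6 rose by 8.02 (SE 1.46) to 0.92, and Lif, another gp130 cytokine, by 4.73 (SE 0.78) to 3.56 in the authors' deposited table. Osmr, the oncostatin M receptor, rose by 2.31 (SE 0.41) and Csf1, the growth factor of macrophages and microglia, by 2.05 (SE 0.34) in the authors' deposited table. The shared signalling chain Il6st and the receptor Lifr were not called, at -0.04 and -0.10 in the authors' deposited table. Ligands thus made up most of the largest changes in this group. Il19, a cytokine of the IL-10 family and one of the 15 largest rises, went from at most 0.0338 to 4.52 (log2 6.99, SE 1.14) in the authors' deposited table.

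Of 24 tested genes of IL-1, TNF and NF-kB feedback, 19 were called higher and 1 lower, with a median of 1.73. The cytokine genes Tnf and Il1b rose by 6.32 (SE 1.26) and 2.88 (SE 0.77) but stayed at low group means of 0.432 and 0.633 in the authors' deposited table. Nfkbia, the inhibitor that NF-kB itself induces, rose from at most 13.9 to 49.5, a log2 fold change of 1.91 (SE 0.25, FDR p = 6.83e-12) in the authors' deposited table. Other NF-kB targets rose further: Tnfaip2 by 5.27, Birc3, which restrains cell death, by 3.96 and the co-regulator Bcl3 by 3.75 in the authors' deposited table. Nos2, the inducible nitric oxide synthase, rose by 3.44 and Ptgs2, the inducible cyclooxygenase, by 3.00 in the authors' deposited table. Tnfaip3, another NF-kB-induced inhibitor, fell by 0.58 (SE 0.14, FDR p = 0.000983) from a mean of 62.5 in the authors' deposited table. The 2 feedback inhibitors Nfkbia and Tnfaip3 therefore differed in direction. Il18 and Il33, cytokines of the IL-1 family, were not called, at 0.24 and 0.06 in the authors' deposited table.

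Of 11 tested genes of leukocyte adhesion 5 were called higher and none lower. Icam1, a ligand for leukocyte integrins, rose by 4.82 (SE 0.64, FDR p = 1.86e-11) from at most 0.54 to 15.2 in the authors' deposited table. The selectins Selp and Sele, which catch rolling leukocytes, rose by 6.38 (SE 1.11) and 4.85 (SE 0.96) to means of 0.42 and 0.317 in the authors' deposited table. Vcam1 rose by 1.82 (SE 0.40) in the authors' deposited table. Genes on the leukocyte side, Itgal and Itga4, were not called at 0.57 and -0.31 in the authors' deposited table.

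**Figure D1:**
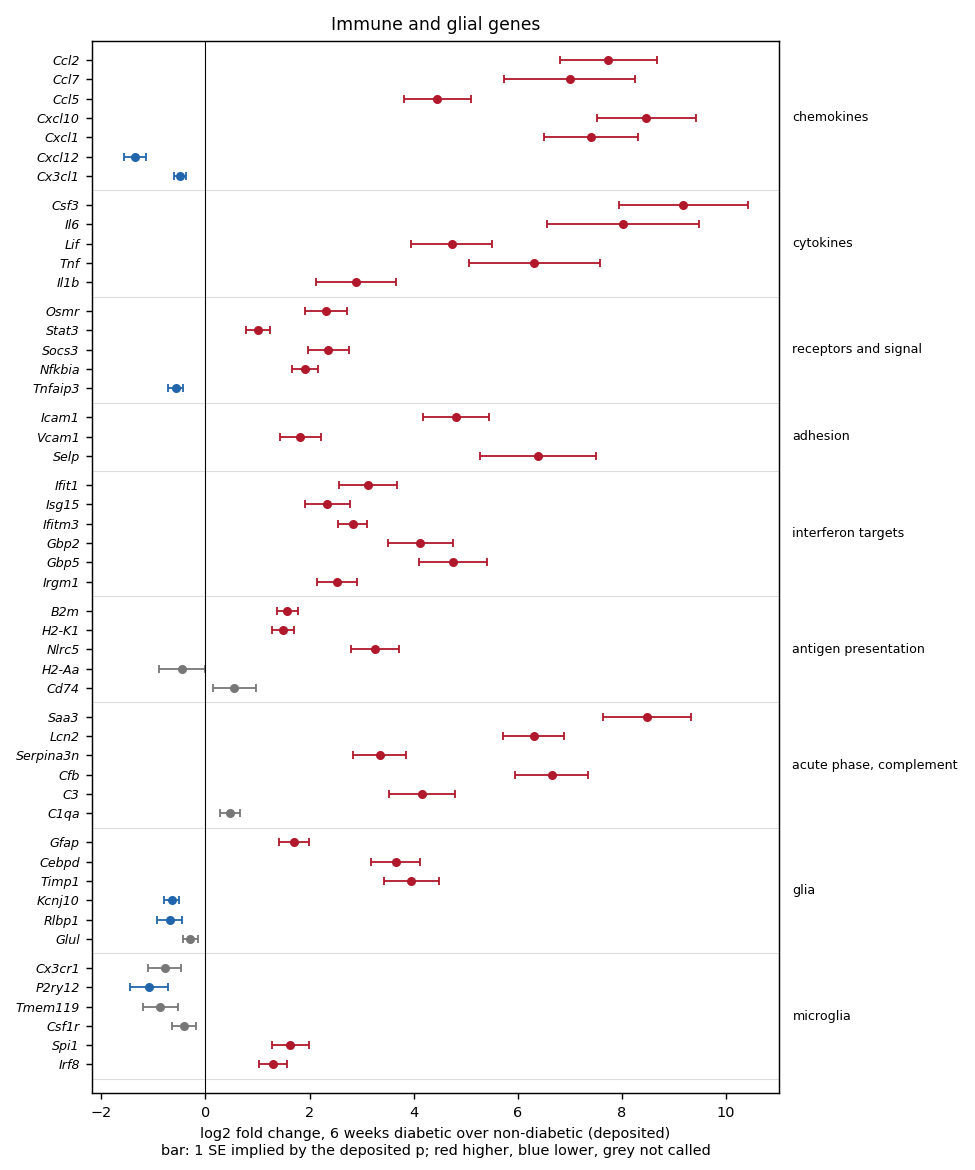
Deposited log2 fold change of 49 immune and glial genes, diabetic for 6 weeks over non-diabetic, on the x axis, with 1 implied SE as the bar; red genes were called higher, blue lower and grey not called. Most ligands, interferon targets and acute-phase genes lie above 2, while Cxcl12, Cx3cl1, Tnfaip3, Kcnj10, Rlbp1 and P2ry12 were called lower and lie below 0. Some genes that were not called, such as Tmem119, Cx3cr1, Csf1r, H2-Aa and Glul, also lie below 0.

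Interferon-stimulated antiviral genes were called higher in 25 of 33 tested cases and lower in none, with a median of 1.72. Ifitm3, which blocks virus entry, had one of the 10 smallest p-values among rises, from at most 10.7 to 73.4, a log2 fold change of 2.83 (SE 0.28, FDR p = 8.77e-20) in the authors' deposited table. Ifit1, an RNA-binding antiviral protein gene whose sequence is shown above, rose by 3.12 (SE 0.56) and Isg15, the ubiquitin-like modifier, by 2.34 (SE 0.44) in the authors' deposited table. Mx1, an antiviral GTPase, rose by 4.92 (SE 0.90) to a mean of 0.392 in the authors' deposited table. The transcription factor Irf1 rose by 2.34 and Stat2 by 0.63, whereas Irf7 was not called at -0.12 in the authors' deposited table.

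Interferon-inducible GTPases, which attack vacuoles that hold microbes, had the highest list median, 3.40, with 14 of 15 tested genes called higher and none lower. Gbp2 rose from at most 1.01 to 17.6 (log2 4.13, SE 0.63) and Gbp5 from at most 0.289 to 7.56 (log2 4.75, SE 0.66) in the authors' deposited table. Gbp3, whose window holds overlapping ISRE matches, rose by 3.58 (SE 0.42, FDR p = 3.09e-14) in the authors' deposited table. Tgtp1 rose by 4.12 (SE 0.57), Irgm1 by 2.53 (SE 0.39) and Iigp1 by 3.76 (SE 0.54) in the authors' deposited table. Only Gvin1 was not called, at 0.54 in the authors' deposited table. Members of this family, and of the Ifit, Serpina3, Orm, Saa and H2-Q families, are near copies of each other, so how reads were divided among them is uncertain.

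For MHC class I, 15 of 16 tested genes were called higher, with a median of 1.37. B2m, the light chain of all class I molecules, rose from at most 22.1 to 62.4 (log2 1.57, SE 0.20, FDR p = 1.68e-12) and H2-K1, a heavy chain, from at most 17.3 to 43.3 in the authors' deposited table. Nlrc5, the class I transactivator, rose by 3.25 (SE 0.46) from at most 0.109 to 0.573 in the authors' deposited table. The peptide pump genes Tap1 and Tap2 rose by 1.96 and 1.27, and the immunoproteasome gene Psmb8 by 1.92, in the authors' deposited table. For MHC class II, 0 of 7 tested genes were called in either direction from the deposited FDR p, and 0 had an unadjusted p under 0.05, with a median of -0.37. H2-Aa and H2-Ab1, class II chains, stood at -0.44 (SE 0.44) and -0.47 (SE 0.29) in the authors' deposited table. Constitutive proteasome genes were called higher in 2 of 25 cases, Psma3 at 0.38 and Psmb1 at 0.31 in the authors' deposited table, a share below the 14.1% of all genes tested.

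Acute-phase genes, best known from the liver in inflammation, were called higher in 15 of 18 tested cases, with a median of 2.85. Lcn2, which binds bacterial iron carriers, had a group mean of 185 in diabetic and at most 2.43 in non-diabetic retina, a log2 fold change of 6.30 (SE 0.58, FDR p = 5.43e-23) in the authors' deposited table. It lies on chromosome 2 from 32274645 to 32278264 (GRCm39, minus strand). Saa3, a serum amyloid made outside the liver, rose from at most 0.0159 to 5.94 (log2 8.48, SE 0.85, FDR p = 8.77e-20) in the authors' deposited table. Timp1, an inhibitor of matrix proteases, rose by 3.96 (SE 0.53), and A2m, a protease trap, by 1.88 (SE 0.29) in the authors' deposited table. Orm2, a plasma carrier protein gene, was listed at 0 in the non-diabetic group and at 0.777 in the diabetic group of the authors' deposited table. The signal components Stat3 and its inhibitor Socs3 rose by 1.01 (SE 0.23) and 2.36 (SE 0.39) in the authors' deposited table. The liver genes Saa1 and Hamp were not called, at 2.19 and 0.48 in the authors' deposited table.

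Complement genes were called higher in 8 of 18 tested cases and lower in none, with a median of 0.70. Cfb of the alternative pathway rose from at most 0.129 to 11.96 (log2 6.65, SE 0.70, FDR p = 5.8e-18) in the authors' deposited table. C3, the common substrate, rose by 4.15 (SE 0.63) and C4b of the classical pathway by 1.60 (SE 0.27) in the authors' deposited table. C1ra, a protease of the first component, rose by 3.12 (SE 0.45), whereas C1qa, a recognition chain made by microglia, was not called at 0.47 (SE 0.20, FDR p = 0.0634) in the authors' deposited table. The inhibitors Cd55 and Cd59a were not called, at -0.05 and -0.28 in the authors' deposited table. Among toll-like receptor and inflammasome genes 7 of 20 were called higher and none lower. Tlr2, a receptor for bacterial lipoproteins, rose by 4.23 (SE 0.76) and Casp4, an inflammatory caspase, by 3.59 (SE 0.70), while Tlr4 was not called at -0.11 in the authors' deposited table.

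**Figure D2:**
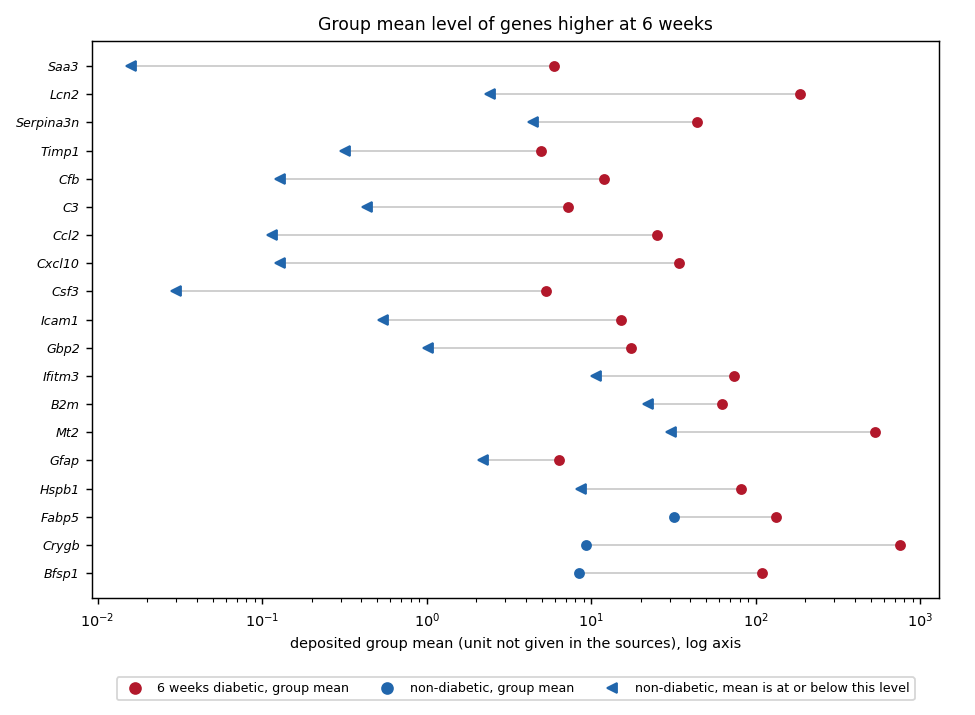
Deposited group means of 19 genes called higher, on a log axis, in diabetic (red) and non-diabetic (blue) retina; the unit is not given, so levels are compared within a gene only. A blue triangle marks a level that the non-diabetic mean does not exceed, and every red point lies right of its blue mark, with Lcn2 at 185 against at most 2.43.

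Microglial identity genes had no common direction. Of 25 tested homeostatic microglia genes 3 were called higher and 3 lower, with a median of -0.08. These counts depended on the threshold, with 3 higher and 0 lower at an FDR p under 0.01, and 4 and 7 at 0.10. The 25 levels summed to 171 in non-diabetic and 176 in diabetic retina, most of it from the widely expressed Sparc and Cd81. The genes called lower were the purine receptor genes P2ry12 (-1.08, SE 0.37) and P2ry13 (-1.23, SE 0.43) and the lipid receptor gene Gpr34 (-1.57, SE 0.51) in the authors' deposited table. Tmem119 and Cx3cr1 stood at -0.86 (SE 0.34, FDR p = 0.0504) and -0.78 (SE 0.32, FDR p = 0.0584), just outside the threshold, and Csf1r at -0.41 (SE 0.22, FDR p = 0.174) in the authors' deposited table. The myeloid transcription factor genes Spi1 and Irf8 rose by 1.63 (SE 0.36) and 1.30 (SE 0.28), and Mertk, a receptor for engulfing dying cells, by 0.61 (SE 0.16) in the authors' deposited table. In bulk tissue, fewer cells of a type and less RNA per cell cannot be told apart. Genes of activated microglia were called higher in 8 of 25 cases and lower in none, with Ch25h, which makes an oxysterol, at 4.63 (SE 0.53) and Cybb, the phagocyte oxidase, at 1.93 (SE 0.49) in the authors' deposited table. Fabp5, a lipid carrier of this list, rose from 31.7 to 133 (log2 2.12, SE 0.65) in the authors' deposited table. This SE lay above the median of 0.119 in the highest level bin, and which cells carried the rise in Fabp5 was not tested. Apoe and Clec7a of the same list were not called, at -0.00 and -0.14 in the authors' deposited table.

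Markers of leukocytes from the blood were called higher in 4 of 18 tested cases (22.2%, against 14.1% of all tested genes) and lower in none. Their summed level was 6.05 in non-diabetic and 12.1 in diabetic retina, and most of the diabetic sum came from S100a8 and S100a9. In non-diabetic retina 14 of the 20 listed markers lay under a level of 0.1. The neutrophil genes S100a8 and S100a9 rose by 1.78 (FDR p = 0.0499) and 1.87 (FDR p = 0.0339), to means of 4.14 and 4.42, in the authors' deposited table. Cd8a of cytotoxic T cells rose by 1.52 (SE 0.45) to 0.161 and Mpo of granulocytes by 2.68 (SE 0.97) to 0.0349 in the authors' deposited table. The pan-leukocyte gene Ptprc was not called at -0.06 (SE 0.32), and the neutrophil gene Ly6g not at -0.46 (SE 1.47), in the authors' deposited table. Most leukocyte markers were thus not called, but at such low levels a change could go uncalled. Entry of leukocytes was not tested.

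Gliosis genes were called higher in 21 of 27 tested cases and lower in none, with a median of 1.70. This list shares Lcn2, Serpina3n, Stat3, Socs3, Timp1 and others with the acute-phase list. Gfap rose from at most 2.19 to 6.33 (log2 1.70, SE 0.28, FDR p = 1.78e-07) in the authors' deposited table, and lies on chromosome 11 from 102778162 to 102791738 (GRCm39). Cebpd, a transcription factor of the acute phase, rose by 3.66 (SE 0.47) from at most 1.54 to 18.8, and Steap4, a metal reductase, by 5.10 (SE 0.69) in the authors' deposited table. Edn2, an endothelin made by injured photoreceptors, rose by 2.49 (SE 0.38) in the authors' deposited table. Vim and Nes, other filament genes, were not called at 0.33 (SE 0.28) and 0.06 in the authors' deposited table.

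Of 20 tested genes of normal Muller glia function 2 were called higher, 6 lower and 12 neither, with a median of -0.04. Kcnj10, the potassium channel that clears the extracellular space, fell by 0.65 (SE 0.14, FDR p = 0.000117) from a mean of 8.86 in the authors' deposited table. Rlbp1, which carries retinoids of the visual cycle, fell by 0.69 (SE 0.24) from 108, and Slc1a3, the glutamate transporter, by 0.51 (SE 0.16) from 25.3 in the authors' deposited table. Gpr37 had the largest fall of the list, -1.01 (SE 0.19) in the authors' deposited table. Sox9 and Car14, a transcription factor and a carbonic anhydrase of these cells, were called higher at 0.61 and 0.47, and Glul, glutamine synthetase, was not called at -0.29 (SE 0.15) in the authors' deposited table. Of 14 tested astrocyte and oligodendrocyte genes 1 was called (7.14% higher, against 14.1% of all tested genes), Aldh1l1, higher by 0.59 (SE 0.16) in the authors' deposited table.

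Vascular genes were mixed, with falls among some transporters and receptors of the barrier endothelium. Of 25 tested barrier genes 6 were called lower and 2 higher, Cdh5 and Slc7a5, which is also a transporter. Among all tested genes 9.31% were called lower and 14.1% higher. Abcb1a, the drug efflux pump, fell by 1.55 (SE 0.25, FDR p = 7.11e-08) from 1.85, and the transporters Slco1a4 and Slco1c1 fell by 1.45 and 1.12 in the authors' deposited table. Tek, the angiopoietin receptor, fell by 1.25 (SE 0.33) and Kdr, the main VEGF receptor, by 0.78 (SE 0.15) in the authors' deposited table. Cdh5, the endothelial cadherin, was called higher by 0.63 (SE 0.23), and the junction gene Cldn5 and the VEGF receptor Flt1 were not called, at -0.06 (SE 0.35) and -0.00, in the authors' deposited table. Among 19 VEGF and angiopoietin genes 2 were called higher and 3 lower. Vegfa was not called at -0.33 (SE 0.14, FDR p = 0.0613) from 50.8, while Pgf, a relative that binds Flt1, rose by 2.56 (SE 0.47) and Angptl4, a lipase inhibitor, by 2.92 (SE 0.43) in the authors' deposited table. Of 14 pericyte and mural genes 1 was called higher (7.14%), Mcam at 1.00, and 2 lower (14.3%), Cspg4 at -1.01 and Rgs5 at -0.31, in the authors' deposited table. Gkn3, which was among the 15 largest falls, was lower at -2.99 (SE 0.61) from 0.691 in the authors' deposited table.

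Matrix genes were called higher in 5 of 26 tested cases and lower in 2. These shares of 19.2% and 7.69% lay near the 14.1% and 9.31% of all tested genes. Adamts1, a matrix protease, rose by 1.87 (SE 0.39) from at most 4.74 to 16.98, and Col6a1 by 0.63 (SE 0.14) in the authors' deposited table. Fn1, fibronectin, fell by 0.39 (SE 0.11) and Tnc, tenascin C, by 0.43 (SE 0.14) in the authors' deposited table. The basement membrane gene Col4a1 was not called at 0.01 in the authors' deposited table.

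**Figure D3:**
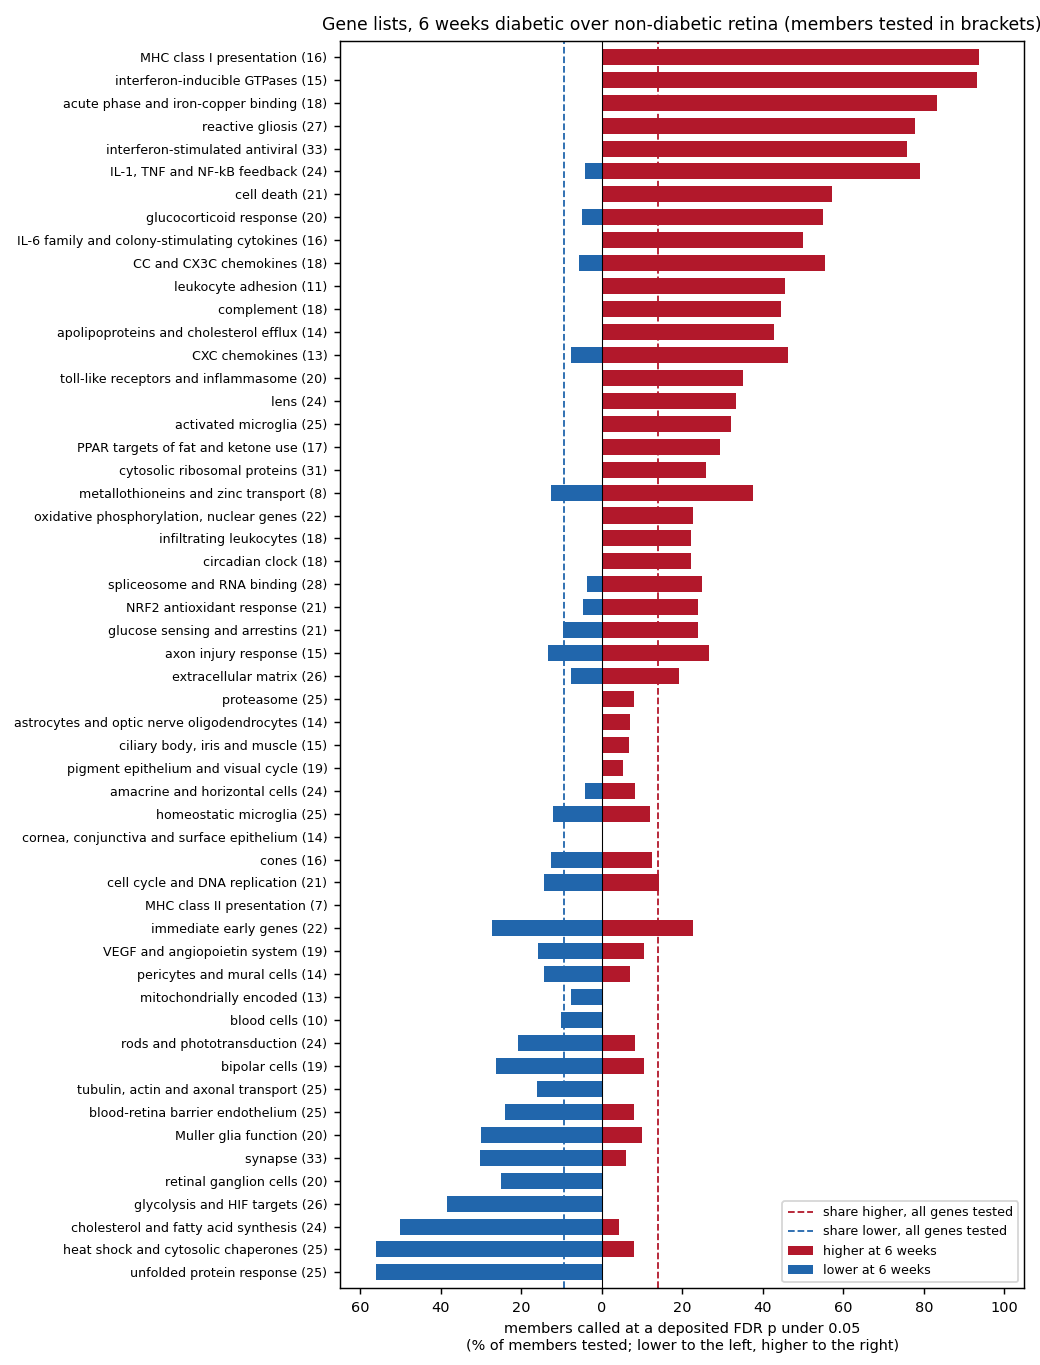
Share of the tested members of 54 gene lists that were called higher (red, to the right) or lower (blue, to the left), in percent, with the number tested in brackets; dashed lines mark the shares among all tested genes, 14.1% and 9.31%. The MHC class I, interferon-inducible GTPase, acute-phase, gliosis and antiviral lists stand at the top, and the unfolded protein, heat shock, sterol synthesis and glycolysis lists the bottom.

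Of 24 tested rod genes 2 were called higher (8.33%) and 5 lower (20.8%), against 14.1% and 9.31% of all tested genes. Rcvrn fell by 1.43 (SE 0.30, FDR p = 5.59e-05) from 941, and Gnat1 by 0.48 (SE 0.17) from 3630 in the authors' deposited table. Guca1a, which activates guanylate cyclase, and Sag, rod arrestin, were called higher by 0.71 (SE 0.16) and 0.58 (SE 0.15) in the authors' deposited table. Cone genes were called higher in 2 of 16 cases and lower in 2 (12.5% each, against 14.1% and 9.31% of all tested genes). The cone opsin Opn1mw stood at 0.38 and the phosphodiesterase subunit Pde6h at -0.46 in the authors' deposited table. Among 19 bipolar cell genes 2 were called higher and 5 lower. Grm6, the glutamate receptor of ON bipolar cells, fell by 0.64 (SE 0.17) and Trpm1, the channel that it controls, was higher by 0.54 (SE 0.14) in the authors' deposited table. Of 24 amacrine and horizontal cell genes 2 were called higher (8.33%) and 1 lower (4.17%), both below the shares of all tested genes. The gene called lower was Slc32a1, the vesicle transporter of inhibitory transmitters, at -0.42 (SE 0.12) in the authors' deposited table.

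Genes of ganglion cells, whose axons form the optic nerve, were called lower in 5 of 20 tested cases and higher in none, with a median of -0.17. The 3 neurofilament genes Nefl, Nefm and Nefh fell by 0.43, 0.39 and 0.38, and Slc17a6, the glutamate transporter of their vesicles, by 0.47 (SE 0.12), in the authors' deposited table. The identity gene Pou4f1 and the surface marker Thy1 were not called, at -0.31 and -0.17, in the authors' deposited table. Synapse genes were called lower in 10 of 33 cases and higher in 2, with a median of -0.18. Syn1, which tethers vesicles, was lower at -0.56 (SE 0.12, FDR p = 7.17e-05) from 26.3, and Bsn, a scaffold of the active zone, at -0.57 (SE 0.13) in the authors' deposited table. Rims2 and Shank1, also scaffold genes, went up by 0.51 (SE 0.13) and 0.28 (SE 0.09) in the authors' deposited table. Rph3a, a vesicle protein outside the list with one of the 10 smallest p-values among falls, was at -0.83 (SE 0.11) from 39.9 in the authors' deposited table. Axon injury genes were called higher in 4 of 15 cases (26.7%) and lower in 2 (13.3%), against 14.1% and 9.31% of all tested genes. Sprr1a, which marks regrowing axons, rose by 5.01 (SE 0.93) to 0.71, whereas Atf3 and Jun, early factors of the same response, were not called at 0.20 and 0.09 in the authors' deposited table. Cytoskeleton and transport genes were called lower in 4 of 25 cases, with the kinesin Kif5a at -0.50 (SE 0.12) in the authors' deposited table.

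Genes of the immediate early class, which answer to stimulation within minutes, moved both ways, with 5 of 22 tested genes called higher and 6 lower. Nr4a3, a nuclear receptor gene, fell by 2.64 (SE 0.31, FDR p = 2.04e-14) from 1.74, and Egr4 was lower at -2.18 (SE 0.39) from 1.56 in the authors' deposited table. Fosl1, an AP-1 subunit, rose by 5.06 (SE 0.86) to 2.51 and Maff by 2.50 (SE 0.55) in the authors' deposited table. Fos and Egr1 were not called, at -0.03 (SE 0.31) and 0.35, in the authors' deposited table. Among clock genes 4 of 18 were called higher (22.2%, against 14.1% of all tested genes) and none lower. Ciart, a repressor in the clock, rose by 1.06 (SE 0.15, FDR p = 8.26e-10) and Cry1 by 0.68 (SE 0.18), and Dbp and Nr1d1, genes with a strong daily rhythm, were not called at -0.10 and -0.19, in the authors' deposited table. Sik2, a kinase that acts on CREB co-activators, had the smallest p-value among all falls, -1.22 (SE 0.13, FDR p = 8.18e-17) from 12.4 in the authors' deposited table.

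Glucocorticoid-responsive genes were called higher in 11 of 20 tested cases and lower in 1. Fkbp5, a brake on the receptor, rose by 1.28 (SE 0.16, FDR p = 9.64e-13), while Tsc22d3 and Per1, also receptor targets, were higher by 0.36 and 0.47 in the authors' deposited table. The metallothioneins Mt1 and Mt2, which bind zinc and also answer to cytokines, rose from at most 30.5 each to 266 and 527 in the authors' deposited table. Mt3, the neuronal member, rose by 0.87 (SE 0.16) and Mtf1, the zinc-sensing factor, was lower at -0.31 (SE 0.08) in the authors' deposited table. Sgk1 and Zbtb16, targets of the same receptor, were not called at -0.31 and 0.66 in the authors' deposited table.

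Genes that respond to glucose and insulin state were called higher in 5 of 21 tested cases and lower in 2. These shares were 23.8% and 9.52%, against 14.1% and 9.31% of all tested genes. Txnip, an arrestin induced by glucose that limits glucose uptake, rose from at most 2.30 to 7.41 (log2 1.80, SE 0.29, FDR p = 7.22e-08) in the authors' deposited table. Its relatives Arrdc2 and Arrdc4 rose by 1.46 (SE 0.19) and 0.73 (SE 0.20), and Igfbp3, which binds insulin-like growth factors, by 2.57 (SE 0.34), in the authors' deposited table. Slc2a3, the neuronal glucose transporter, fell by 0.42 (SE 0.11) and Pdk1, a brake on pyruvate use, by 0.66 (SE 0.14) in the authors' deposited table. Akr1b3, the polyol pathway enzyme aldose reductase, was not called at -0.09, nor the barrier glucose transporter Slc2a1 at -0.32, in the authors' deposited table.

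Glycolysis and hypoxia-inducible factor (HIF) genes were called lower in 10 of 26 tested cases and higher in none, with a median of -0.29. Pfkl, a phosphofructokinase chain that acts at the committed step, fell by 1.04 (SE 0.22, FDR p = 9.22e-05) from 126 in the authors' deposited table. Pgk1 and Eno1, later enzymes, fell by 0.76 (SE 0.16) and 0.59 (SE 0.15) from 354 and 760 in the authors' deposited table. Slc16a3, which exports lactate, had the largest fall of the list, -1.50 (SE 0.29, FDR p = 1.16e-05) from 13.3 in the authors' deposited table. P4ha1, a HIF target that hydroxylates collagen, fell by 0.74 (SE 0.16) in the authors' deposited table. Hk2 and Ldha were not called at 0.07 and -0.33 (SE 0.18), nor Hif1a at -0.00, in the authors' deposited table. PPAR targets of fat and ketone use were called higher in 5 of 17 cases and lower in none, with Cpt1a, which lets fatty acids into mitochondria, at 0.52 (SE 0.13) in the authors' deposited table. Nuclear genes of oxidative phosphorylation were called higher in 5 of 22 cases (22.7%, against 14.1% of all tested genes), at 0.21 to 0.36 in the authors' deposited table. Of 13 mitochondrially encoded genes 1 was called, lower (7.69%, against 9.31% of all tested genes), mt-Nd4l at -0.39 in the authors' deposited table.

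Genes that make cholesterol and fatty acids were called lower in 12 of 24 tested cases and higher in 1, with a median of -0.36. Sqle, an enzyme of cholesterol synthesis, was lower at -0.57 (SE 0.13) from 13.9 in the authors' deposited table. Srebf2, the factor that switches enzymes of this pathway on, fell by 0.50 (SE 0.11) while Srebf1, its relative for fatty acids, rose by 0.70 (SE 0.15) in the authors' deposited table. On the export side 6 of 14 genes were called higher and none lower. Abca1, which loads lipoproteins with cholesterol, rose by 0.96 (SE 0.13, FDR p = 1.67e-10) and Apod, an apolipoprotein of glia, by 3.78 (SE 0.48) from at most 0.493 to 6.45 in the authors' deposited table. Synthesis and export lists had medians of opposite sign, -0.36 and 0.36.

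Of 25 tested heat shock and cytosolic chaperone genes 14 were called lower and 2 higher, with a median of -0.34. Hspa1b and Hspa1a, the inducible HSP70 copies, were lower at -1.33 (SE 0.20, FDR p = 6.27e-09) and -1.02 (SE 0.20) from 34.9 and 41.5 in the authors' deposited table. They are near-identical neighbours on chromosome 17, so the division of reads between them is uncertain. Hsph1, an exchange factor for HSP70, fell by 1.05 (SE 0.18) and Hsp90aa1, the inducible HSP90, by 0.78 (SE 0.16) from 470 in the authors' deposited table. Going the other way, Hspb1, a small heat shock protein that is also a gliosis marker, rose by 3.55 (SE 0.64) from at most 8.61 to 81.1, and Bag3 by 1.01 (SE 0.30), in the authors' deposited table. Which cells carried the rise in Hspb1 was not tested. Hsf1, the factor that drives heat shock genes, was not called at -0.17, nor its target Hspe1 at 0.02, in the authors' deposited table.

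The unfolded protein response, which adds chaperones to the endoplasmic reticulum, was lower in 14 of 25 tested genes and higher in none, with a median of -0.44. Hspa5, its main chaperone, fell by 0.58 (SE 0.17, FDR p = 0.00553) from 68.6, and lies on chromosome 2 from 34661982 to 34667559 (GRCm39), in the authors' deposited table. Calr and Pdia6, whose ERSE sequences are shown above with that of Hspa5, fell by 0.60 (SE 0.19) and 0.48 (SE 0.14) in the authors' deposited table. Sdf2l1, a partner of Hspa5, had the largest fall of the list at -1.17 (SE 0.21) and Xbp1, a factor of the response, fell by 0.54 (SE 0.13) in the authors' deposited table. Of the 8 genes with an ERSE, Canx, Creld2 and Hsp90b1 also fell, by 0.39, 0.44 and 0.59, whereas Dnajc3 and Ero1b were not called at -0.02 and 0.04, in the authors' deposited table. Atf4 and Atf6, factors of other arms, were not called at 0.33 (SE 0.14) and -0.27 in the authors' deposited table.

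**Figure D4:**
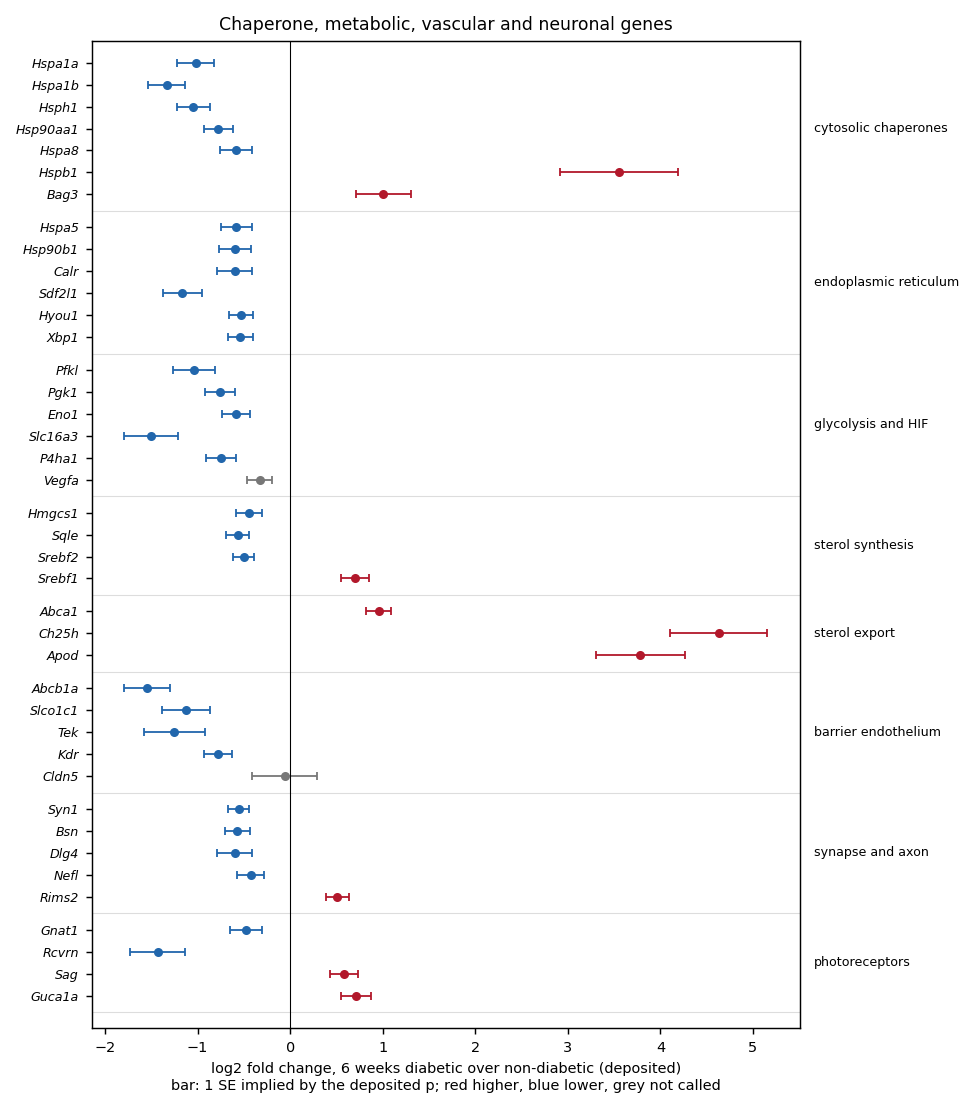
Deposited log2 fold change of 40 chaperone, metabolic, vascular and neuronal genes, diabetic for 6 weeks over non-diabetic, on the x axis, with 1 implied SE as the bar; red genes were called higher, blue lower and grey not called. Most points lie between -1.6 and 0, and Hspb1, Ch25h and Apod lie above 3.

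Antioxidant genes of the NRF2 response were called higher in 5 of 21 tested cases and lower in 1. These shares were 23.8% and 4.76%, against 14.1% and 9.31% of all tested genes. Hmox1, which breaks down haem, rose by 2.91 (SE 0.56) from at most 2.00 to 10.6 and Slc7a11, the cystine importer, by 2.68 (SE 0.61) in the authors' deposited table. Nqo1 was higher by 0.62 (SE 0.22) and Gclm, another standard target, was not called at 0.12 in the authors' deposited table. Cell death genes were called higher in 12 of 21 cases and lower in none, with a median of 0.59. Fas, a death receptor, rose by 4.86 (SE 0.67) from at most 0.544 to 7.92, and Cdkn1a, the p53 target that halts the cell cycle, by 3.68 (SE 0.46) from at most 2.39 to 18.3, in the authors' deposited table. Trp53 and its inhibitor Mdm2 were higher by 0.64 (SE 0.15) and 0.49 (SE 0.12) in the authors' deposited table. Cell cycle genes were called higher in 3 of 21 cases and lower in 3 (14.3% each, against 14.1% and 9.31% of all tested genes). The proliferation marker Mki67 was not called at -0.58 in the authors' deposited table.

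Ribosomal protein genes were called higher in 8 of 31 tested cases and lower in none, by 0.33 to 0.46, with a list median of 0.26. Spliceosome and RNA-binding genes were called higher in 7 of 28 cases and lower in 1. Rbm3 and Cirbp, RNA-binding proteins known to rise when cells are cooled, were higher by 1.40 (SE 0.17, FDR p = 1.63e-13) and 0.90 (SE 0.16), with Rbm3 going from at most 24.1 to 57.1, in the authors' deposited table.

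Of 24 tested lens genes 8 were called higher and none lower, with a median of 1.62. Crygb and Crygd, gamma crystallins of lens fibres, rose from 9.32 to 757 (log2 6.39, SE 1.35) and from 3.96 to 440 (log2 6.85, SE 1.39) in the authors' deposited table. They lie together on chromosome 1 and are near copies. Cryaa, the most used lens marker, was not called at 0.51 (SE 1.41) between means of 1484 and 2084 in the authors' deposited table. The SEs of these genes lay far above the median of 0.156 over all tested genes. Among blood cell genes 1 of 10 was called, the haemoglobin gene Hbb-bs, lower at -2.03 (SE 0.77) from 34.8 (10.0% of the list, against 9.31% of all tested genes), and Hba-a1 was not called at -1.97 (SE 0.80), in the authors' deposited table. Surface epithelium genes were called in 0 of 14 cases from the deposited FDR p, with 2 at an unadjusted p under 0.05 and a median of 0.89, and Krt14 stood at 1.61 (SE 1.06) in the authors' deposited table.

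The same non-diabetic samples also serve the 8 and 10 week comparisons, whose diabetic groups were labelled PBS, so these 3 comparisons share their controls. The numbers in the sample titles form one run for the 6 week and non-diabetic samples and another for the 8 and 10 week PBS samples, so time, PBS and that division cannot be told apart. At 8 weeks 509 of 17495 tested genes were called (2.91%), 407 higher (2.33%) and 102 lower (0.583%). At 10 weeks 1212 of 17317 were called (7.0%), 968 higher (5.59%) and 244 lower (1.41%). The median SE was 0.156, 0.153 and 0.151 at 6, 8 and 10 weeks. For interferon-inducible GTPases the list medians were 3.40, 2.66 and 3.91 at 6, 8 and 10 weeks, and for gliosis 1.70, 1.16 and 2.13. For the unfolded protein response they were -0.44, -0.14 and -0.00, with 14, 0 and 0 genes called lower. Glycolysis and HIF genes had medians of -0.29, -0.22 and -0.12, with 10, 0 and 0 called lower. Sterol and fatty acid synthesis genes had medians of -0.36, -0.24 and -0.31, with 12, 0 and 10 called lower. Heat shock genes had -0.34, -0.29 and -0.29, with 14, 5 and 7 called lower. Lens genes had 1.62, -4.73 and -0.36, with 8, 0 and 0 called higher and 0, 15 and 0 called lower. For blood cell genes the medians were -1.79, -1.82 and -1.51, with 1, 4 and 5 of 10 called lower. No lens or blood cell gene differed between 6 weeks and the later times in the test given below, so these list values are not shown to differ.

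**Figure D5:**
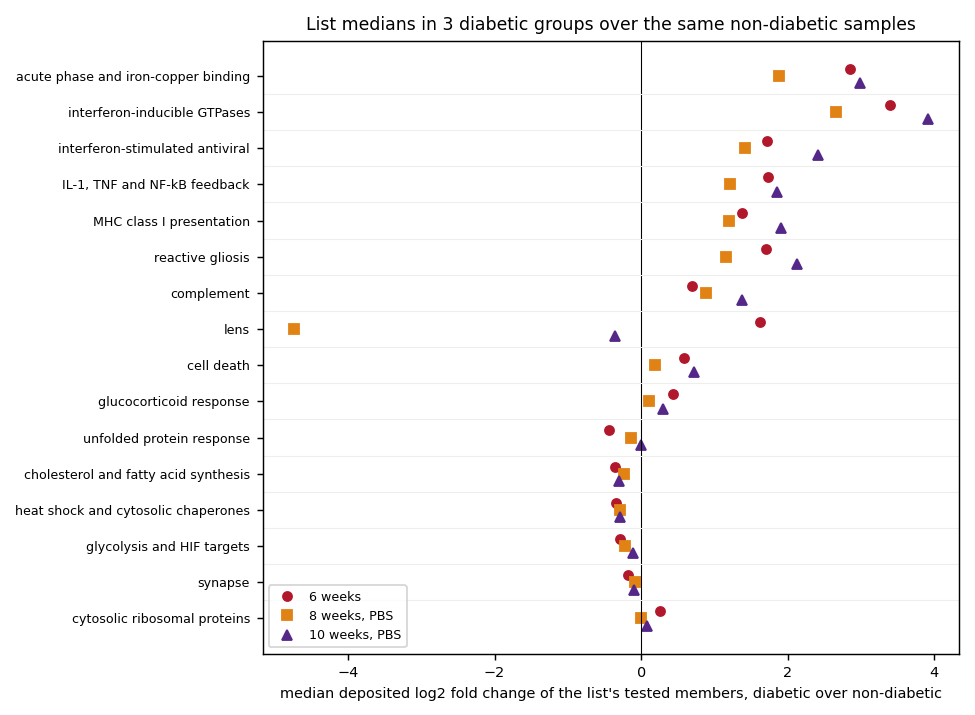
Median deposited log2 fold change of 16 gene lists over the same non-diabetic samples, on the x axis, for retina diabetic for 6 weeks (circles) and for 8 (squares) and 10 weeks with PBS (triangles). Of the lists drawn, the acute-phase, interferon, NF-kB feedback, MHC class I, gliosis and complement lists lie above 0 in all 3 groups. So do the cell death and glucocorticoid lists, and the lens list lies at 1.62, -4.73 and -0.36.

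The difference between the 6 week and the later log2 fold changes was tested gene by gene, with variances added, which overstates the error because the controls are shared. Against 8 weeks 4 of 17495 genes differed at an adjusted p under 0.05 (normal test, Benjamini-Hochberg), and 1317 at an unadjusted p under 0.05. Against 10 weeks 2 of 17317 genes differed, and 1294 at an unadjusted p under 0.05. H1f8, the linker histone of oocytes, went from 0.398 in non-diabetic to 23.5 in 6 week diabetic retina, log2 6.05 (SE 0.75, FDR p = 6.49e-13), and stood at -0.24 and -0.02 at 8 and 10 weeks, in the authors' deposited tables. Wfikkn1, an inhibitor of growth factors of the TGF-beta family, rose by 3.72 (SE 0.54) from 0.257 to 3.05 and stood at 0.09 and -0.11 at the later times in the authors' deposited tables. None of the genes that differed belongs to the unfolded protein, glycolysis or sterol lists, so the smaller counts of those lists at 8 weeks are not shown to be a difference.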

How the data were processed

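Poly(A) RNA of retina was sequenced in both groups. The submitters' processing notes name bcl2fastq and the GRCm39 assembly; versions, the aligner, counter, normalization and test are not stated there. The authors deposited, per the file headers, a signal level (the larger of both group means, unit not stated), a log2 fold change and a p-value with its FDR value for each gene. Benjamini-Hochberg adjustment of the deposited p-values over the tested genes gives the deposited FDR within 4.19e-06. From these the SE was taken as the size of the log2 fold change over the normal quantile of p. The non-diabetic mean was the smallest level over the 6 tables with that group where at least 2 tables share it (11510 genes), otherwise an upper bound (6256), or 0 (7889). For summed levels, a mean that the tables do not hold was taken from the other mean and the fold change. In 1643 genes with both means known, their log2 ratio lay -0.047 from the deposited value (median). Steps ran in Python 3.11.15 with numpy 2.4.6, pandas 2.3.3 and scipy 1.17.1, and were tested on simulated data.

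The comparison and the 54 gene lists (1035 genes tested) were chosen with earlier results of these data known. Named genes are, per list, the 4 called members with the smallest p, those called against the majority and the first 2 not called, plus the 15 largest changes and 10 smallest p each way and 7 fixed names (Gfap, Vegfa, C1qa, Csf1r, Tmem119, P2ry12 and Cx3cr1). Other list members were named after their values were seen. Predicted genes were not named. Alternatives changed the threshold, the fold, the genes adjusted over and the level filter. Motif searches, marker sums and symbol families were added after the values were seen. Some members of the lists are counted but not reported here by name.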

Additional observations from a re-analysis of the deposited data

Results flagged for a closer look

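The log2 fold change at 6 weeks differed from that of the later PBS groups for 3 named genes in the normal test of the difference (Benjamini-Hochberg over all genes tested in both). From the authors' deposited tables, for H1f8, the oocyte linker histone, the 6 week value exceeded the 8 week value by 6.29 (SE 1.07, adjusted p = 8.33e-05) and the 10 week value by 6.08 (SE 1.07, adjusted p = 0.000259). For Wfikkn1 the differences, from the authors' deposited tables, were 3.63 (SE 0.78, adjusted p = 0.0252) and 3.84 (SE 0.78, adjusted p = 0.00725). Mtmr10, a member of the myotubularin lipid phosphatase family, had a log2 fold change of 0.92 at 6 and 0.01 at 8 weeks in the authors' deposited tables, a difference of 0.90 (SE 0.20, adjusted p = 0.0327). Time, the PBS label and the run of numbers in the sample titles cannot be told apart in these differences.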

How the results depend on the processing

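At an FDR p under 0.01 in place of 0.05, 1534 genes were higher and 867 lower, and with at least a 2-fold change 834 and 144. At 0.10, without the lowest 40% of levels, without predicted names and adjusted over every gene with a p, the counts stayed within 1.5 times, from 2447 to 3110 higher and from 1617 to 2200 lower. Against 10 weeks, 4 genes differed at 0.10. Of 229 named genes called, 45 were not called at 0.01, 99 failed the 2-fold minimum and 2 were not called when adjusted over every gene. Of 36 list counts of at least 5, 12 moved by over 1.5 times at 0.01 and 19 with the 2-fold minimum. No paired analysis was possible because the tables hold comparisons and not samples; for the same reason no sample could be left out. Depth is unknown, and in the lowest level bin the median SE of 0.857 limits what can be called.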

Other observations

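Replication-dependent histone genes, whose transcripts in dividing cells end in a stem-loop and not in a poly(A) tail, were looked at after their values were seen. Of 61 tested, 21 were called lower, none higher and the others neither, against 9.31% lower among all tested genes, with a median log2 fold change of -1.06. Among the 18 whose larger group mean was over 1, 14 were called lower, with a median of -1.32 and a range of -2.50 to 0.30. A gene can pass that filter through its non-diabetic mean alone. The filter thus favours genes that fell, and the count of 14 adds no support. H4c12 and H1f4 stood at -2.50 (SE 0.48) and -2.25 (SE 0.44) from means of 3.62 and 4.79 in the authors' deposited table. At 8 weeks they stood at -0.84 and -0.87 and at 10 weeks at -1.02 and -1.12 in the authors' deposited tables. Histone genes are near copies, so the division of reads among them is uncertain.

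Genes were also grouped by symbol stem after the values were seen, and of 182 stems with at least 12 tested genes those with at least 35% called in one direction are given, against 14.1% higher and 9.31% lower among all tested genes. Of 44 tested collagen genes 18 were called higher and none lower, with a median of 0.28, and of 19 Adamts protease genes 7 and none, with a median of 0.61. Voltage-gated calcium channel genes (Cacna) were called higher in 7 of 14 cases and lower in none, with a median of 0.24. Clustered protocadherin genes of the gamma A group were called lower in 7 of 12 cases and higher in none, with a median of -0.63, and Pcdhgc5, of the same cluster's C group, stood at -1.43 (SE 0.21) in the authors' deposited table. Intraflagellar transport genes (Ift), which build cilia such as the photoreceptor outer segment, were called lower in 6 of 14 cases and higher in none, with a median of -0.20. Other stems past that share were Nup (8 of 21 higher, 2 lower), Parp (5 of 12 higher, none lower) and Klf (6 of 16 higher, 2 lower), and Cyb (5 of 13 lower, 1 higher) and Hspa (5 of 13 lower, none higher). The chemokine stems Ccl and Cxcl and the interferon stem Ifi also passed it and overlap the lists described above. Aqp1, a water channel, was lower at -0.90 (SE 0.12, FDR p = 2.5e-11) from 79.9 in the authors' deposited table.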
